A study of Mus musculus with 7 samples.

Results

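Genes of the smooth muscle contractile apparatus were followed in mouse embryonic fibroblasts (MEFs) and mouse embryonic stem cells (mESCs). The 10 genes were chosen by name as the rows of the count table for Acta2, Actg2, Tagln, Cnn1, Cnn2, Tpm1, Tpm2, Lmod1, Myl9 and Mylk. All 10 were found among the 55484 genes listed, and all 10 passed the filter on low counts that left 16580 genes to be tested. MEFs are connective tissue cells cultured from mouse embryos, while mESCs are pluripotent and stem from the early embryo. RNA-seq counts were available for 4 MEF and 3 mESC libraries. The study gives a C57/Bl6 background for all its MEFs and mESCs where it describes the chromatin assay, and does not repeat it for the RNA-seq samples. The labels give no age, passage or treatment. The study calls its RNA-seq samples biological replicates, but neither it nor the labels say whether they came from separate cultures or embryos, so part of the spread behind the p-values may be technical. All 4 MEF columns were used here, which is more than the number of MEF replicates given in the study's legends. The study describes sorting of THY1+ MEFs and of THY1- SSEA1+ EPCAM+ mESCs for its chromatin assay, and does not state whether the RNA-seq samples were sorted in the same way.

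Force in a smooth muscle cell comes from myosin sliding along actin filaments. Contraction begins when myosin light chain kinase phosphorylates the regulatory light chain of myosin, and tropomyosins, calponins and transgelin bind along or beside the actin filament. Fibroblasts that turn on part of this set, with smooth muscle α-actin (Acta2) as the usual marker, are called myofibroblasts and are known from wound healing, fibrosis and culture on stiff plastic. Many of these genes are controlled by serum response factor (SRF), which binds a sequence called the CArG box and works with the cofactors MRTF-A, MRTF-B and, in smooth muscle, myocardin. TGF-β is the best known inducer of the myofibroblast state.

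Promoters were searched for the motifs known for this control, because all 10 genes differed in the same direction in the counts described below. RefSeq promoter sequences (GRCm38.p6, 250 bases before to 50 bases after the annotated start) were matched for 8 of the 10 genes. Actg2 and Tagln had no match. The starts used for Acta2, Tpm1 and Mylk lie inside the spans of these genes given below, and so do their printed sites. The starts used for Myl9, Cnn2 and Lmod1 also lie inside the spans, but their printed sites lie before them. A CArG box, which has a pair of C, then 6 bases that are all A or T, then a pair of G, was found in the promoters of Myl9 and Cnn2 (2 of 8 genes), compared with 1.63% of 32851 mouse promoters of the same length. When 1 of the 6 middle bases was allowed to be C or G, the sites of Acta2 were also found, giving 3 of 8 genes compared with 9.98% of all promoters. The motif reads as itself on both strands. The sites are printed with 10 bases on each side, on the strand of the gene, with the CArG sequence in capitals.
Myl9, starting 161 bases before the annotated start (chr2:156775293-156775322, plus strand): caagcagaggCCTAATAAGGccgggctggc
Myl9, starting 99 bases before the start, with 1 departure (chr2:156775355-156775384, plus strand): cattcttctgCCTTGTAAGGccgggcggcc
Cnn2, starting 56 bases before the start (chr10:79988534-79988563, plus strand): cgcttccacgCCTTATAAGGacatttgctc
Acta2, starting 84 bases before the start, with 1 departure (chr19:34255438-34255467, minus strand): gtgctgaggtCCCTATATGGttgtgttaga
Acta2, starting 34 bases before the start, with 1 departure (chr19:34255388-34255417, minus strand): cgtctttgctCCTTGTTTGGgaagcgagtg

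A second motif, the MCAT element bound by TEAD factors, was searched as CATTCC or GGAATG, which are each other's reverse complement. It was found in the promoters of Acta2, Lmod1, Mylk and Tpm1 (4 of 8 genes), compared with 14.7% of all promoters. The motif does not overlap the CArG sites printed above. The MCAT sites are printed in capitals in the same 30-base format, since they cover 3 genes in which no CArG sequence was found.
Acta2, starting 146 bases before the start (chr19:34255502-34255531, minus strand): gagcagaacagaGGAATGcagtggaagaga
Tpm1, starting 56 bases before the start (chr9:67049252-67049281, minus strand): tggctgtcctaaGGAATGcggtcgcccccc
Lmod1, starting 130 bases before the start (chr1:135324671-135324700, plus strand): ccaagattccctGGAATGtcctcaagtttc
Mylk, starting 158 bases before the start (chr16:34784780-34784809, plus strand): tgcagttcagaaCATTCCctggtacgtgca
These matches describe letters in a window and do not show that a factor was bound there.

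Gene counts summed to 11441278, 7312679, 9176467 and 6528643 in the MEF libraries, which are named MEF-A, MEF-B, MEF-C and MEF-D in that order. They summed to 8193825, 8057985 and 7462710 in the mESC libraries, named mESC-A, mESC-B and mESC-C. A floor of 3 counts corresponded to 0.288 to 0.477 CPM, which covers counting error only. Levels are given as CPM, for which each library's counts were brought to the same total after TMM scaling (edgeR's correction for differences in library composition). Values are listed in this order of the libraries throughout. The identity of the cells was checked on marker lists. All 10 fibroblast markers were higher in MEFs and all 8 pluripotency markers were higher in mESCs. The MEF libraries did not form one uniform group, because 3 Y-linked genes summed to 2.11 and 0.611 CPM in MEF-A and MEF-B and to 90.7 and 88.5 CPM in MEF-C and MEF-D. They also summed to 35.8 CPM in mESC-C, compared with 1.73 and 1.82 CPM in mESC-A and mESC-B. MEF-D and mESC-C were the lowest of their cell types for some genes, among them a few abundant cytoskeletal genes. These values are given with the paralogs. As the samples are bulk RNA, fewer cells expressing a gene and less RNA per cell cannot be told apart.

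All 10 genes were higher in MEFs at an adjusted p below 0.05 (quasi-likelihood test of edgeR, p-values adjusted over 16580 genes after Benjamini and Hochberg). Among all genes tested, 25.0% were called higher in MEFs and 22.8% higher in mESCs. Every MEF library lay above every mESC library for each of the 10 genes, a pattern found in 26.3% of all genes tested. The median log2 fold change of the 10 genes was 5.65, beside -0.04 over all genes tested. Their summed level was 9806 to 12320 CPM in MEFs and 253.9 to 266.6 CPM in mESCs.

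**Figure D1:**
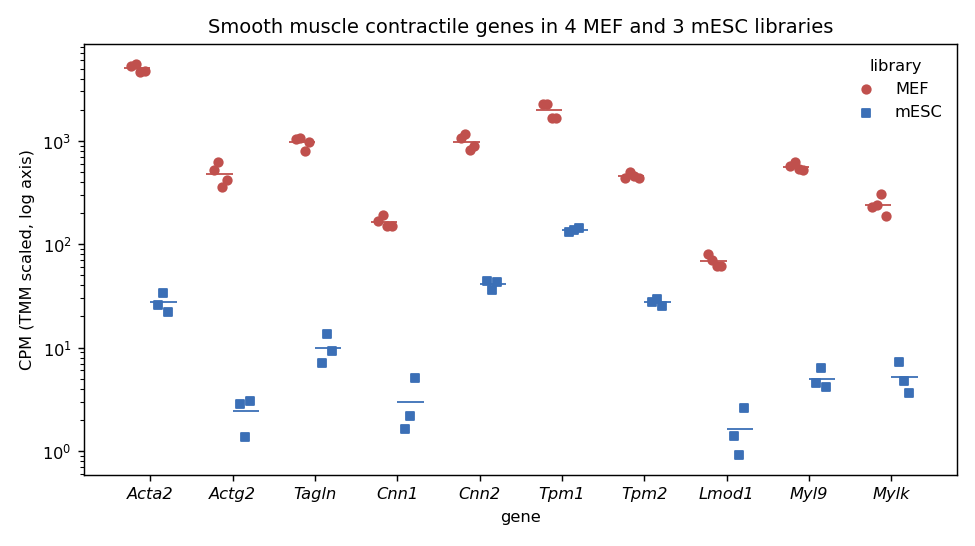
Level of each of the 10 genes in every library, with CPM after TMM scaling on a log axis. Red circles are the 4 MEF libraries, blue squares the 3 mESC libraries and short lines the group means. The groups are separated for all 10 genes, with the smallest gap for Tpm1 (1649 CPM in the lowest MEF library and 142.5 in the highest mESC library).

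The actins showed the largest differences. Acta2, the smooth muscle α-actin of vessels and the usual myofibroblast marker, lies on chromosome 19 (34241090 to 34255590, minus strand, GRCm38, as are all gene positions below). Its levels were 5298, 5587, 4665 and 4784 CPM in MEFs and 25.6, 34.1 and 22.1 CPM in mESCs. The MEF libraries thus differed by at most 1.20-fold among themselves, while the means of 5084 ± 433.7 (SD, n = 4) and 27.3 ± 6.12 CPM (SD, n = 3) differed by 186-fold. The log2 fold change was 7.54 (SE 0.201, adjusted p = 5.94e-09, edgeR). The mESC values rest on 188 to 300 counts per library and are well above the floor.

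Actg2, the γ-actin of visceral smooth muscle (chromosome 6, 83512905 to 83536265, minus strand), had 522.3, 617.3, 355.3 and 416.4 CPM in MEFs and 2.81, 1.36 and 3.06 CPM in mESCs. It had the widest relative spread of the 10 genes among MEFs, with a coefficient of variation (CV) of 24.2%. Its log2 fold change of 7.62 (SE 0.343, adjusted p = 6.14e-08, edgeR) did not stand apart from that of Acta2 by more than the standard errors. Only 12 to 26 counts per library lie behind the mESC values, so the size of its fold change is less certain than that of Acta2.

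The genes whose products bind the actin filament were spread more widely. Tagln encodes transgelin, an actin-binding protein abundant in smooth muscle, and lies on chromosome 9 (45929619 to 45936058, minus strand). It had 1050, 1054, 788.5 and 968.0 CPM in MEFs and 7.03, 13.6 and 9.31 CPM in mESCs, a log2 fold change of 6.59 (SE 0.266, adjusted p = 3.42e-08, edgeR). The strand setting of the counting is not stated, and the exons of Tagln overlap those of the antisense genes Gm48529 and Pcsk7. Other annotated genes hold 58.4% of its 50-base stretches. These neighbours had few counts of their own, with 4 to 13 for Gm48529 and 9 to 33 for Pcsk7 in the MEF libraries, beside 6082 to 10936 for Tagln. How many Tagln reads were lost as ambiguous was not tested.

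Calponins bind actin and slow myosin's ATP use. Cnn1, the calponin of differentiated smooth muscle (chromosome 9, 22099216 to 22109630, plus strand), had 167.3, 189.6, 148.6 and 148.5 CPM in MEFs and 1.62, 2.16 and 5.07 CPM in mESCs. mESC-C was the highest of its group, and the log2 fold change was 5.79 (SE 0.364, adjusted p = 5.72e-07, edgeR). Cnn2, the calponin of many non-muscle cells as well (chromosome 10, 79988584 to 79996062, plus strand), had 1069, 1157, 816.5 and 891.6 CPM in MEFs and 43.6, 36.2 and 42.9 CPM in mESCs. Its log2 fold change of 4.58 (SE 0.181, adjusted p = 3.06e-08, edgeR) was lower than that of Cnn1 by more than the sum of both standard errors. The mESC level of Cnn2 was 4.16% of the MEF level, compared with 1.80% for Cnn1.

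Tropomyosins form a cable along the actin filament and control access of myosin. Tpm1 (chromosome 9, 67022590 to 67049406, minus strand) had 2292, 2273, 1672 and 1649 CPM in MEFs and 132.3, 137.7 and 142.5 CPM in mESCs. Tpm2 (chromosome 4, 43514711 to 43523765, minus strand) had 437.6, 497.5, 456.0 and 435.0 CPM in MEFs and 27.6, 29.5 and 25.1 CPM in mESCs. They had the smallest log2 fold changes of the 10 genes, 3.84 for Tpm1 (SE 0.170, adjusted p = 5.41e-08, edgeR) and 4.05 for Tpm2 (SE 0.150, adjusted p = 2.15e-08, edgeR). Both retained a clear level in mESCs, 6.98% and 6.002% of that in MEFs. Tropomyosin genes make muscle and non-muscle forms by alternative splicing and promoter use, and gene counts of 3′-biased libraries do not tell these forms apart.

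Lmod1 encodes leiomodin, which starts new actin filaments in smooth muscle (chromosome 1, 135324807 to 135368065, plus strand). It had 80.7, 69.6, 62.0 and 61.3 CPM in MEFs and 1.41, 0.908 and 2.59 CPM in mESCs, with 8 to 22 counts per mESC library. The libraries did not overlap, and the log2 fold change was 5.38 (SE 0.327, adjusted p = 4.61e-07, edgeR).

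The myosin side of the apparatus was represented by the regulatory light chain and its kinase. Myl9, the regulatory light chain of smooth muscle myosin (chromosome 2, 156775420 to 156781658, plus strand), had 566.0, 630.3, 534.9 and 518.1 CPM in MEFs and 4.54, 6.36 and 4.12 CPM in mESCs. Its log2 fold change of 6.80 (SE 0.214, adjusted p = 1.11e-08, edgeR) came next after both actins. Mylk, the kinase that phosphorylates this light chain (chromosome 16, 34745210 to 35002420, plus strand), had 226.7, 239.7, 306.7 and 189.2 CPM in MEFs and 7.25, 4.77 and 3.65 CPM in mESCs. Its log2 fold change was 5.51 (SE 0.293, adjusted p = 1.85e-07, edgeR). The exons of Mylk overlap the antisense genes E130310I04Rik and Gm21691, which had at most 6 counts in any library.

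Ordered by log2 fold change, the genes ran Actg2, Acta2, Myl9, Tagln, Cnn1, Mylk, Lmod1, Cnn2, Tpm2 and Tpm1. Neighbours in this order differed by less than the sum of their standard errors, except for 4 steps, from Acta2 to Myl9, from Tagln to Cnn1, from Lmod1 to Cnn2 and from Cnn2 to Tpm2. Of all genes tested, 0.253% had a larger log2 fold change than Actg2 and 4.48% a larger one than Tpm1. Each of the 10 genes kept its direction and its call in all 13 alternative analyses run for it. Without TMM scaling the median of all genes tested moved from -0.04 to -0.32, while the lowest log2 fold change of any of the 10 genes over the alternatives was 3.55, for Tpm1.

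The levels left in mESCs were set beside those of other fibroblast genes. Relative to the MEF mean, the mESC mean ran from 0.505% for Actg2 to 6.98% for Tpm1, with a median of 1.99% over the 10 genes. For the 10 fibroblast markers (Thy1, Pdgfra, Pdgfrb, Dcn, Lum, Twist1, Twist2, Prrx2, S100a4 and Vim) the median was 2.03%, with a range from 0.411% for Twist2 to 16.6% for Lum. Summed over each list, mESCs had 2.37% of the MEF level of the 10 contractile genes and 2.16% of that of the fibroblast markers. The fibroblast markers summed to 67.7 to 88.6 CPM in the mESC libraries and 3355 to 3635 CPM in the MEF libraries, and none of them was at 0 in any mESC library. Col1a1 and Col1a2, the chains of type I collagen, had 0.473% and 0.451% in mESCs, close to the 0.537% of Acta2. In the other direction, MEFs had 0.604 CPM of Pou5f1, the pluripotency factor Oct4, compared with 116.5 CPM in mESCs. The part of fibroblasts or of fibroblast RNA in the mESC values was not tested.

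**Figure D2:**
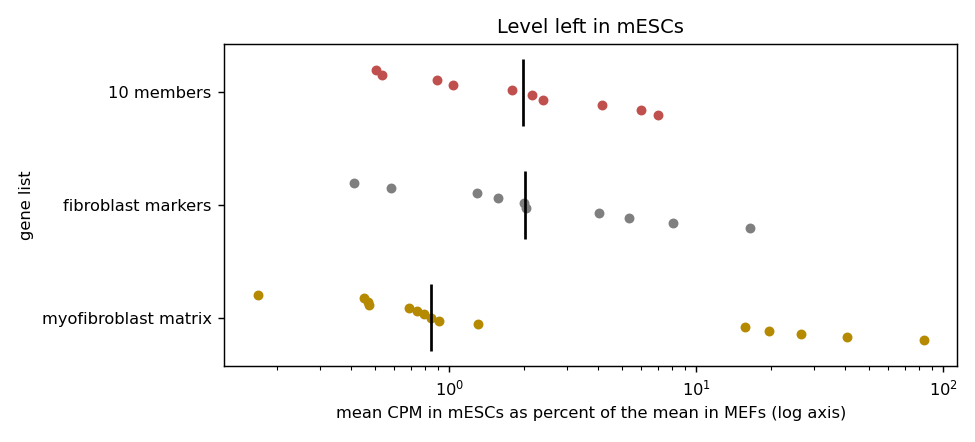
Mean level in mESCs as a percentage of the mean level in MEFs, on a log axis, for each gene of 3 lists. Points are genes and black lines are list medians. The 10 contractile genes (median 1.99%) cover about the range of the fibroblast markers (median 2.03%), and the myofibroblast matrix genes have a median of 0.841%.

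The second question was how far the MEF libraries differed from each other. Between them the 10 genes had CVs from 6.33% (Tpm2) to 24.2% (Actg2), while counting error alone would give 0.511% (Acta2) to 4.45% (Lmod1). The median SD of log2CPM over the 4 MEF libraries was 0.19 for the 10 genes. It was 0.20 over the 2865 tested genes with a MEF level at least that of Lmod1, the lowest of the 10, and 0.38 over all genes tested. The median spread of the contractile genes between MEF libraries was thus close to that of genes at or above the level of Lmod1. That set has only a lower bound and was not matched to the level of each gene. Actg2 and Mylk, with CVs of 24.2% and 20.4%, varied most, and 17.3% and 27.1% of these 2865 genes had a larger SD.

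The libraries kept a partly common order across the genes. MEF-B was highest for 7 genes, MEF-A for Tpm1 and Lmod1, and MEF-C for Mylk. The lowest library was MEF-D for 6 genes and MEF-C for Acta2, Actg2, Tagln and Cnn2. In 8 of the 10 genes MEF-A and MEF-B, with low Y-linked counts, both lay above MEF-C and MEF-D, with Tpm2 and Mylk as the exceptions. The same order was found in 21.7% of all genes tested, and among the myofibroblast matrix genes 3 of 15 had this order and 9 had the opposite one. The order was also found in 9 of 16 tested paralogs (56.2%) and in 9 of 20 genes of the SRF and MRTF route (45.0%), both lists described below, so it was not particular to the 10 genes. Summed pericyte markers had the same order, with 208.7 and 244.9 CPM in MEF-A and MEF-B and 159.8 and 153.9 CPM in MEF-C and MEF-D. This sum was carried by the more abundant Rgs5, Cspg4 and Mcam, which each had that order. Kcnj8 (9.70, 6.87, 12.5 and 10.35 CPM), Abcc9 (4.13, 3.36, 6.48 and 5.57 CPM) and Notch3 (6.145, 11.75, 12.1 and 11.9 CPM) had the opposite one. The pericyte markers thus did not share one order. No test of the difference between the pairs was run. The part of the embryos' sex or of pericytes in this order was not tested.

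**Figure D3:**
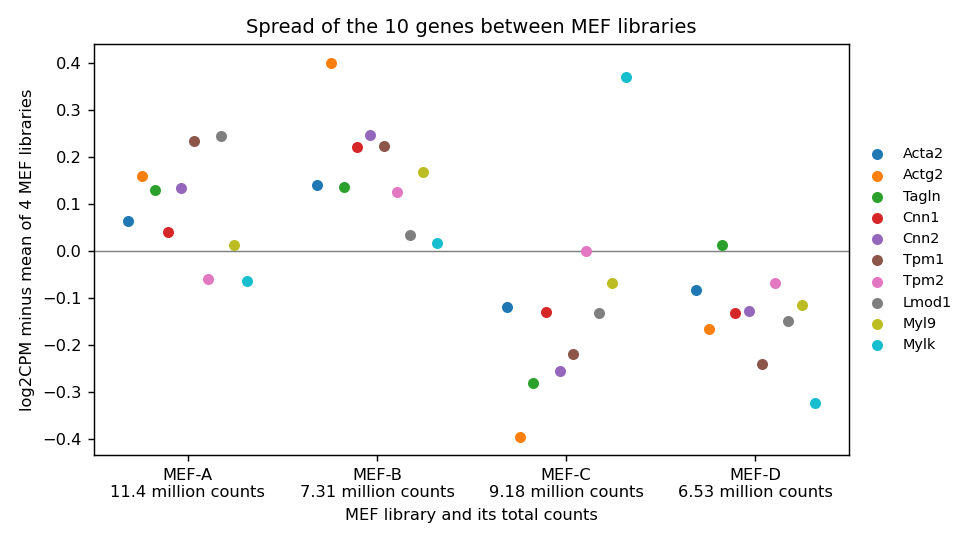
Deviation of log2CPM from the mean of the 4 MEF libraries for each of the 10 genes, 1 coloured point per gene and library. Most points of MEF-A and MEF-B lie above 0 and most points of MEF-C and MEF-D lie below, with Mylk (0.37 in MEF-C) as the widest exception.

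Matrix genes ordered the MEF libraries differently from the contractile genes. Col3a1, a fibrillar collagen chain of soft tissue, had 1543, 1951, 3705 and 3592 CPM. Dcn, a small proteoglycan that binds collagen, had 121.3, 148.8, 467.3 and 522.7 CPM. Both were highest in MEF-C and MEF-D, in which Acta2 was lowest. Ccn2, a matricellular protein gene induced by TGF-β and YAP, followed the contractile genes with 580.5, 519.6, 265.9 and 261.8 CPM.

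Genes of the later smooth muscle programme had a lower median difference than the 10 contractile genes. For the counts of this list and of those that follow, the share of all genes tested that were higher in MEFs was 25.0%. Of 15 listed, 14 were tested, 9 were higher in MEFs, none was higher in mESCs and 5 did not pass the test, with a median log2 fold change of 1.57. Myh11, the smooth muscle myosin heavy chain and the most specific marker of mature smooth muscle, had 37.1, 42.6, 35.03 and 22.1 CPM in MEFs and 1.95, 0.454 and 0.353 CPM in mESCs. It was higher in MEFs with a log2 fold change of 5.17 (SE 0.516, adjusted p = 1.58e-05, edgeR), and MEF-D was the lowest MEF library. Smtn, which encodes smoothelin of contractile smooth muscle, was higher by 1.91 on the log2 scale (SE 0.294). Itga8, an integrin subunit of smooth muscle and fibroblasts, was higher by 6.003 (SE 0.387) and Synpo2, an actin-bundling protein of smooth and striated muscle, by 4.23 (SE 0.543).

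The other later markers were low or did not differ by the test. Des, the intermediate filament desmin of muscle, had means of 13.6 CPM in MEFs and 15.4 in mESCs (log2 fold change -0.18, adjusted p = 0.600, edgeR). Ppp1r14a, an inhibitor of myosin phosphatase, had 11.8 and 8.95 CPM (log2 fold change 0.39, adjusted p = 0.277, edgeR). Aoc3, Casq2 and Myom1 did not pass either, with MEF means of 3.62, 1.66 and 5.60 CPM. Pln, phospholamban of the calcium store, had no count in any MEF library.

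Relatives of the 10 genes and other actin and myosin genes were listed next, many of which are broadly expressed. Of 23 listed paralogs 16 were tested and 7 were too low, among them Lmod2 and Mylk4 without a count in any mESC library. Of those tested, 12 were higher in MEFs, 2 were higher in mESCs and 2 did not pass the test, with a median log2 fold change of 2.16. Among those higher in MEFs were Cald1, the actin-binding caldesmon (4.52, SE 0.157), Tpm4, a non-muscle tropomyosin (3.86, SE 0.173), Actb, cytoplasmic β-actin (2.73, SE 0.349), Tagln2 (2.26, SE 0.212) and Myl12a, a non-muscle regulatory light chain (2.06, SE 0.140). Myl12b, the twin of Myl12a, was higher in mESCs (log2 fold change -0.81, SE 0.154), as was Myh14, a non-muscle myosin heavy chain (-5.03, SE 0.436). Myl12a and Myl12b overlap on chromosome 17 and share sequence, and Actg1 shares 37.4% of its 50-base stretches with other genes, so their counts are uncertain. Cnn3, another calponin, had means of 559.3 CPM in MEFs and 467.4 in mESCs (log2 fold change 0.26, adjusted p = 0.0822, edgeR).

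A few abundant paralogs were low in one library of each cell type. Myh9, the main non-muscle myosin heavy chain, had 7269, 6351, 6463 and 1911 CPM in MEFs and 482.2, 1193 and 167.5 CPM in mESCs. Actb had 34280, 46370, 29270 and 18990 CPM in MEFs and 5449, 6491 and 2611 CPM in mESCs. Both were lowest in MEF-D and mESC-C, but the 10 contractile genes did not show a drop of this size there. Some genes of the lists below were also lowest in both libraries, among them Rhoa, Ppp1cb, Fhl3 and Smad7. Rhoa had 762.0, 907.1, 838.6 and 478.1 CPM in MEFs and 264.7, 418.2 and 107.4 CPM in mESCs. Others were not, such as Prrx1 with 679.6, 623.7, 779.7 and 816.2 CPM in MEFs and 6.17, 5.34 and 7.07 CPM in mESCs.

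To compare the smooth muscle form with its relatives without any scaling, the share of each form in the counts of its family was computed per library. Tagln made up 49.2%, 49.6%, 53.4% and 58.2% of transgelin counts in MEFs and 3.20%, 6.74% and 5.56% in mESCs. Myl9 made up 19.3% ± 1.12 (SD, n = 4) of the counts of Myl9, Myl12a and Myl12b in MEFs and 0.761% ± 0.245 (SD, n = 3) in mESCs. Acta2 made up 14.2% ± 3.85 of the counts of 4 actin genes in MEFs and 0.604% ± 0.193 in mESCs. Cnn1 made up 9.59% ± 0.363 of calponin counts in MEFs and 0.574% ± 0.351 in mESCs, and Tpm2 12.8% ± 1.71 of tropomyosin counts in MEFs and 6.04% ± 0.514 in mESCs. No MEF share overlapped an mESC share in any of the 5 families (exact permutation test over 35 splits, two-sided, p = 0.0286 and adjusted p = 0.0286 for each of 5 families, the smallest that 4 against 3 libraries allow). The smooth muscle forms thus took a larger share of their families in MEFs. For Tpm2 this held against all other tropomyosins together but not against Tpm1 alone, where the difference was 2.45 percentage points (adjusted p = 0.229, exact permutation test). The highest share of Acta2, 19.6%, was in MEF-D, in which Actb was lowest. The uncertain counts of Actg1, Myl12a and Myl12b enter the shares of Acta2 and Myl9, and reads lost from these relatives would raise both shares. The shares of Cnn1, Tpm2 and Tagln carry the same limit. Other genes hold 24.0% of the 50-base stretches of Cnn3, 23.2% of Tpm3, 15.7% of Tpm4 and 58.4% of Tagln itself. How many reads were lost in any family was not tested. Shares of counts are not shares of protein, and the 3′-biased libraries leave transcript length aside.

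**Figure D4:**
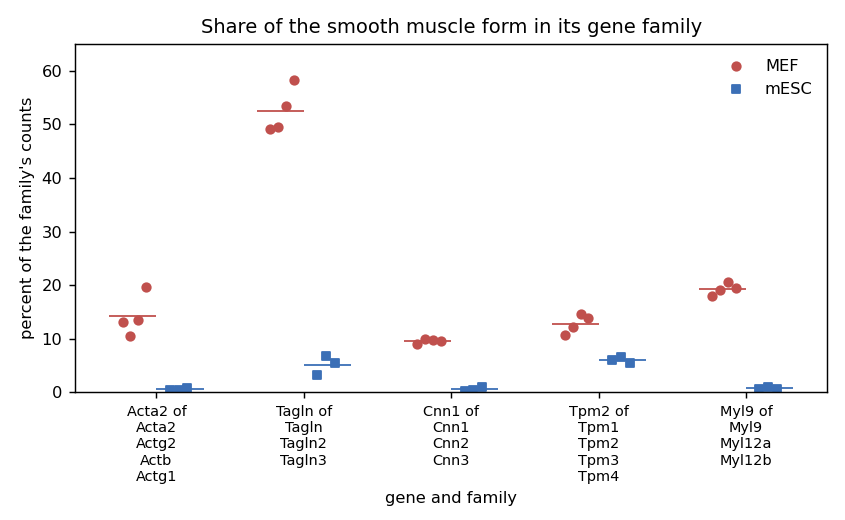
Share of the smooth muscle form in the summed counts of its gene family, in percent on a linear axis from 0, in 4 MEF (red circles) and 3 mESC (blue squares) libraries, with lines for the means. The groups are apart in all 5 families, most widely for Tagln (means of 52.6% and 5.16%) and least for Tpm2 (12.8% and 6.04%).

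The regulators of the programme had a lower median difference than the 10 contractile genes. Of 20 genes of the SRF and MRTF route 14 were higher in MEFs, none was higher in mESCs and 6 did not pass the test, with a median log2 fold change of 1.37. Srf itself had 8.16, 14.3, 7.56 and 11.8 CPM in MEFs and 7.79, 6.36 and 11.1 CPM in mESCs, and the groups overlapped (log2 fold change 0.31, adjusted p = 0.491, edgeR). Mrtfb was higher in MEFs by 1.62 on the log2 scale (SE 0.211, adjusted p = 0.000108, edgeR), and Mrtfa by 1.38 (SE 0.517, adjusted p = 0.0475, edgeR), a call that was lost when any single library other than mESC-B was left out. Myocd, which encodes myocardin, was low everywhere, with 7.30, 4.58, 5.16 and 1.75 CPM in MEFs and 0.974, 1.59 and 0.236 CPM in mESCs (log2 fold change 2.32, SE 0.672, adjusted p = 0.0153, edgeR). Fhl2, an SRF target and cofactor, was higher by 6.78 (SE 0.432), Prrx1, a homeobox factor of mesenchyme, by 6.87 (SE 0.198), Csrp1, a LIM protein of smooth muscle, by 3.60 (SE 0.191), and Tead1, a factor of the MCAT element, by 1.13 (SE 0.153). Csrp2, another LIM protein, did not pass the test (log2 fold change -0.34, adjusted p = 0.0602, edgeR), and was called higher in mESCs with DESeq2, without TMM scaling and with DESeq2's size factors. Against a fold change of 2, 7 of the 20 genes were still called higher in MEFs, beside 2277 of all 16580 genes tested.

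TGF-β ligands and receptors were mostly higher in MEFs too. Of 12 genes of the TGF-β route 11 were higher in MEFs and 1 was higher in mESCs, with a median log2 fold change of 2.37. The ligand Tgfb3 had 138.8, 210.5, 112.2 and 98.5 CPM in MEFs and 0.433, 2.84 and 0.824 CPM in mESCs (log2 fold change 6.67, SE 0.541, adjusted p = 3.44e-06, edgeR). Tgfb2 was higher by 6.02 (SE 0.715) and the receptor Tgfbr2 by 3.93 (SE 0.277). Tgfb1 was also higher in MEFs, by 2.43 (SE 0.636), at low levels in both cell types, with means of 3.99 CPM in MEFs and 0.729 in mESCs. Smad7, an inhibitor that the pathway itself induces, was higher in mESCs, with means of 60.2 CPM in MEFs and 106.3 in mESCs (log2 fold change -0.82, SE 0.268, adjusted p = 0.0263, edgeR). The call for Smad7 was lost when any one of MEF-C, MEF-D, mESC-A or mESC-B was left out.

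Among 15 matrix and adhesion genes of the myofibroblast, 14 were higher in MEFs and 1 did not pass the test, with a median log2 fold change of 6.89. Postn, periostin, had 639.0, 718.1, 978.3 and 810.1 CPM in MEFs and 8.12, 4.43 and 7.30 CPM in mESCs (log2 fold change 6.89, SE 0.278, adjusted p = 3.42e-08, edgeR). Lox, which crosslinks collagen, was higher by 7.18 (SE 0.212) and Tnc, tenascin C, by 6.97 (SE 0.284). Itga11, an integrin subunit for collagen, did not pass the test, since mESC-C had 81.8 CPM where mESC-A and mESC-B had 7.14 and 5.34, and without mESC-C it was higher in MEFs by 2.58 (adjusted p = 0.000536, edgeR). These genes are also expressed by fibroblasts that are not myofibroblasts, so the list does not separate myofibroblasts from them.

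**Figure D5:**
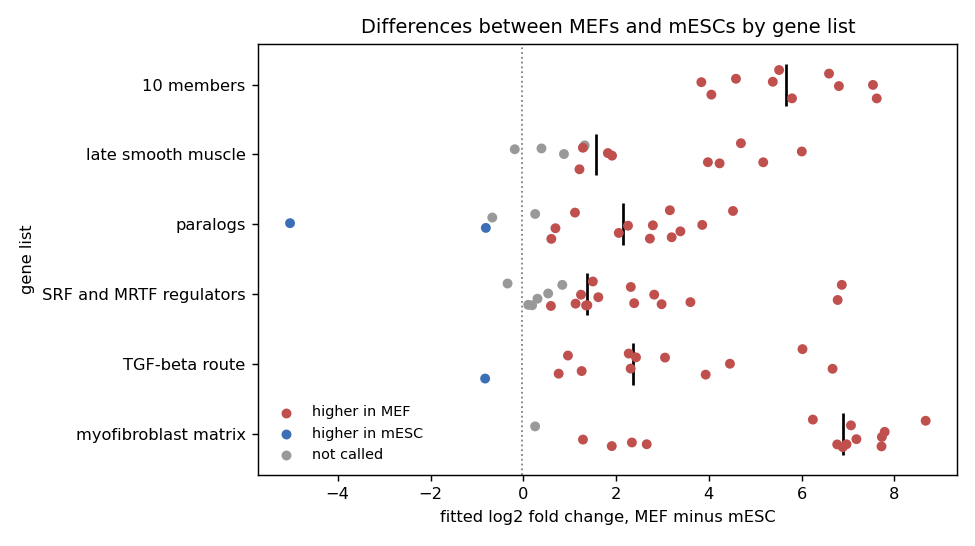
Fitted log2 fold change, MEF minus mESC, for the tested genes of 6 lists. Each point is a gene, red if called higher in MEFs, blue if called higher in mESCs and grey if not called, black lines are list medians and the dotted line is the median of all genes tested. The 10 contractile genes (median 5.65) lie to the right of most late smooth muscle genes (median 1.57) and regulators (median 1.37).

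Markers of other cells, some of which use the same genes, were looked at as whole lists, from which some genes are named. Of 7 pericyte markers 6 were tested and 5 were higher in MEFs, among them Rgs5 (70.5, 73.0, 49.4 and 49.8 CPM in MEFs) and Cspg4, which encodes the NG2 proteoglycan (57.3, 55.4, 48.6 and 41.2 CPM). The list summed to 153.9 to 244.9 CPM in MEFs and 22.3 to 37.8 CPM in mESCs, and Higd1b was at most 0.153 CPM in MEFs. Of 15 striated muscle markers 9 were tested and 4 were higher in MEFs, with list sums of 65.5 to 97.4 CPM in MEFs and 27.2 to 39.3 CPM in mESCs. These 4 were the troponin genes Tnnt2 and Tnnt3 and cardiac and skeletal α-actin, Actc1 and Acta1. Tnnt2 had means of 22.6 CPM in MEFs and 4.89 in mESCs. Actc1, Acta1 and Tnnt3 had means of 12.4, 7.83 and 3.745 CPM in MEFs. The skeletal muscle regulators Myod1 and Myog were too low to be tested. Myod1 had a mean of 1.13 CPM in MEFs, and Myog had 0.192, 0, 2.52 and 4.62 CPM. Of 6 endothelial markers 4 were tested and 1 was higher in mESCs and none in MEFs, with sums of 17.03 to 26.2 CPM in MEFs, where Cdh5, VE-cadherin, had at most 3.18 CPM. Of 4 keratinocyte markers none passed the test, with sums of 86.6 to 111.4 CPM in MEFs and 82.0 to 96.6 CPM in mESCs. Of the 4 neural markers tested 1 was higher in MEFs and 3 in mESCs, and of the 3 blood markers tested 1 was higher in each cell type, with Ptprc, the leukocyte antigen CD45, at most at 2.04 CPM in MEFs. The part of pericytes, smooth muscle cells or muscle precursors in the MEF values was not tested.

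The tested genes outside every list whose pattern over the 7 libraries came closest to the mean pattern of the 10 contractile genes were Ccnd2, Nr2f2, Anxa2, Cxcl12 and Mcub. Likeness was the root mean square distance of centred log2CPM, 0.13 for Ccnd2, 0.15 for Nr2f2, 0.16 for Anxa2, 0.17 for Cxcl12 and 0.20 for Mcub. Ccnd2, a D-type cyclin, had 3510 ± 415.1 CPM in MEFs (SD, n = 4) and 59.4 ± 4.67 CPM in mESCs (SD, n = 3). All 5 were closer to the mean pattern than any of the 10 genes themselves, of which Cnn1 (0.38) and Mylk (0.38) were the nearest and Tpm1 (0.96) the farthest. This follows from the choice, since the 5 were picked as the nearest of all tested genes outside the lists. The log2 fold changes of Ccnd2, Nr2f2, Anxa2 and Cxcl12 (5.88, 5.82, 5.48 and 5.84) lay near the median of 5.65 of the 10 genes. Shared control was not tested. Mcub had only 0.0393 CPM in mESCs, below the floor, so its distance depends on the prior count.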

How the data were processed

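RNA-seq gene counts were used for 4 MEF and 3 mESC samples. The deposited counts are whole numbers per gene symbol without normalization. The authors made them from 3′-biased libraries with molecular identifiers, aligned to mm10 (GRCm38) with STAR (version 2.4.2a per the labels, while the paper's methods name a later version), collapsed identifiers with Je and counted reads with featureCounts. The annotation release and strand setting are not given in the sources used here, and the labels' extraction text names blood stem cells rather than MEFs or mESCs. Column names give the cell type but not the sample, so letters were given to the libraries, whose totals ran from 6528643 to 11441278 counts. 0 columns of per-sample values were unused. Rows with date-form symbols (26, holding 0.25% of counts) stayed in the totals.

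edgeR 4.0.16 (limma 3.58.1, R 4.3.3) was run on all 7 libraries together (TMM, filterByExpr, quasi-likelihood test), with a Benjamini-Hochberg adjusted p of 0.05 over 16580 genes. log2CPM used a prior count of 2. DESeq2 1.42.0, other scalings and filters, a test against a fold change of 2 and leaving out each library were alternatives. Tested on simulated data for MEFs against mESCs, with 16580 genes of which 200 had a log2 fold change of 2, edgeR recovered 151 with 5 false calls. Positions and overlaps come from GENCODE M21 (GRCm38), shared sequences from 50-base stretches of annotated transcripts, and promoters from RefSeq. Pairs of libraries within a cell type differed by a chi-square of 15.6 to 31.1 per degree of freedom (genes with at least 10 counts), so none was a duplicate. The members and lists were chosen with earlier results of these data known. Named genes are the 10 members, the listed genes and the 5 genes nearest to the members' mean pattern.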

Additional observations from a re-analysis of the deposited data

Results flagged for a closer look

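Of 92 sets of 4 MEF values examined, 4 had one library far from the other 3 by Dixon's criterion, where chance gives about 1 in 20. None of the 10 contractile genes was among them. Des had 11.4 CPM in MEF-A and 14.2 to 14.6 CPM in the other 3. Ppp1r12b, a myosin phosphatase subunit, had 8.64 CPM in the same library and 10.4 to 10.7 CPM in the others. Tgfbr3, the TGF-β coreceptor betaglycan, had 14.4 CPM in MEF-B and 23.7 to 24.95 CPM in the others. Ltbp1, which holds latent TGF-β in the matrix, had 91.2 CPM in MEF-D and 121.4 to 125.9 CPM in the others.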

How the results depend on the processing

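Each of the 10 contractile genes stayed higher in MEFs at the threshold in 13 of 13 alternatives, with the largest adjusted p over these at 1.09e-05 (Lmod1). The number of late smooth muscle genes higher in MEFs ran from 7 to 9 over the alternatives. Of the 20 SRF and MRTF genes, 1 rather than 0 was higher in mESCs with DESeq2, without TMM scaling and with DESeq2's size factors in edgeR. Tested against a fold change of 2, 7 rather than 14 of these genes were higher in MEFs, 1 rather than 2 paralogs was higher in mESCs and 0 rather than 1 gene of the TGF-β route was higher in mESCs. Leaving out each library in turn gave 0 to 1 for that last count. With Tpm1 as the one relative, the difference in the Tpm2 share was 2.45 percentage points (adjusted p = 0.229, exact permutation test), and the cause was not tested. Leaving out a library leaves too few splits for the share test to pass, so those shares are values with no test. Over all genes, 3334 were higher in MEFs and 5205 in mESCs without TMM scaling, so that 39.0% rather than 52.3% of calls were higher in MEFs. Against a fold change of 2 the counts were 2277 and 1714. The median MEF spread of the 10 genes stayed between 0.18 and 0.21 on the log2 scale. Depth limits the mESC values of Actg2 and Lmod1 most, with 8 to 26 counts per library. No paired analysis was possible because the count columns carry no sample number that ties a MEF to an mESC library.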
